A study of Oryza sativa with 16 samples.

Results

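A set of 118 probes read at least 4 times as much signal from shoots of the indica cultivar IR64 as from shoots of the japonica cultivar Nipponbare. They were chosen on the ratio itself: the log2 ratio of IR64 over Nipponbare shoot was 2 or higher in both replicates, and the IR64 channel was flagged well above background in both. The choice was made among the 22807 probes that the array design names END3TU (8476 probes, called 3'-end units here) or ENDS (14331 probes on TIGR gene models, called ENDS models here), of 83040 probes in all. The 118 members, 0.517% of those 22807 probes, were 55 3'-end units and 63 ENDS models, with 51 on array set 1 and 67 on array set 2. The question was whether another Nipponbare tissue, namely root, panicle or callus, carried the signal that was low in the Nipponbare shoot.

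The samples were shoots of IR64 and Nipponbare grown in soil in a greenhouse, Nipponbare roots from hydroculture, Nipponbare panicles at the late-boot stage and Nipponbare callus derived from the scutellum. Callus was kept on a medium with a synthetic auxin, and RNA of 10 plants was pooled. According to the labels, shoots and roots were taken at 10 days and callus at 28 days; the methods give a later age for the shoots. Each of the 4 tissues was hybridized against Nipponbare shoot on 2 arrays of each array set, in Cy3 in replicate 1 and in Cy5 in replicate 2, so a replicate is also a dye orientation. RNA was extracted with Trizol from shoots and with an RNeasy kit from the other tissues, and the arrays of each comparison had a scan day that no other comparison shared. Tissue, place of growth, kit and scan therefore cannot be told apart in root, panicle and callus. Shoot extract 1 was used in replicate 1 and extract 2 in replicate 2, except that both callus replicates used extract 2. Nothing in the labels states that replicates are separate growths, so p-values measure the spread between these arrays, which may be technical.

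Rice is divided into the subspecies indica and japonica, whose cultivated lines differ in sequence and in gene content. The probes were designed on the Nipponbare genome. A long oligonucleotide probe reads the amount of transcript that is close to its own sequence, so it reports on 1 stretch, not on the whole gene. That this stretch lies near the end of a transcript is taken from the probe names, which the files do not explain. Root, panicle and callus are the organ of uptake, the inflorescence and a mass of dividing undifferentiated cells, and each uses many genes that a green shoot leaves low. The probe identifiers are not paired with gene names in the files or in the gene table used here, so members are given by identifier, and no sequence or position is shown.

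Levels below are processed signals after each channel was scaled to a median of 1000 over its probes. Across channels, 80.5% to 95.5% of all probes were well above background. The control spots named CAB read log2 -4.35 to -5.36 in root and callus and -2.73 to -2.92 in panicle against shoot, and 0.13 to 0.38 in IR64 shoot against Nipponbare shoot. Apart from this name no marker of a tissue could be checked. A lower signal from fewer cells of a type and from less RNA per cell cannot be told apart in these samples.

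The members' ratios of IR64 over Nipponbare shoot, which the rule used and which are therefore given without a test, had a median of log2 2.79 in replicate 1 and 2.87 in replicate 2. The mean ratio of the replicates was 3 or more for 50 members and 4 or more for 16. Replicates differed by less than 1 log2 unit in 110 of the 118, and the ratio was the larger in replicate 2 in 59, so the split by dye orientation was even. Just inside the threshold, 9636.m01496_END had ratios of log2 2.01 and 2.22, and 9636.m04009_END had 2.09 and 2.01. The first of these, at 2431 and 3381 in IR64 and 599.6 and 712 in shoot, was lower than shoot in root, panicle and callus, and the second, at 16464 and 21374 in IR64 and 3839 and 5215 in shoot, was lower in root and panicle. Just outside, R01-E3TU-01665F had 2.00 and 2.32, the first being 1.996 before rounding, and 9632.m02330_END had 1.99 and 2.74. Among other kinds of probe on the same arrays, 0.188% of 21761 CDS models and 0.264% of 37444 probes of full-length cDNA loci passed the same thresholds, beside 0.649% of the 3'-end units and 0.440% of the ENDS models. In the opposite direction, 247 of the 3'-end and ENDS probes were at least 4-fold lower in IR64.

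The Nipponbare shoot signal of the members was low rather than missing in most cases. Shoot was well above background on all 8 hybridizations for 67 members, on none of the 8 for 10 members, and on both IR64 arrays for 88. In single shoot channels 80.5% to 91.9% of all probes were well above background. The counts over several hybridizations were not taken for all probes, so they only describe the members. The root, panicle and callus arrays held 6 more shoot hybridizations, which repeat the 2 shoot extracts of the rule. Both IR64 channels exceeded all 6 of them for 109 of the 118 members, and for 14.0% of all 3'-end and ENDS probes; the IR64 values are those the rule chose as high, so nothing is read from this difference. IR64 was a median of 7.80-fold above the median of these 6, where 36 members had 3 or more of the 6 not well above background.

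Of the 118 members, 76 were carried by at least 1 of root, panicle and callus, that is, the tissue was well above background on both arrays and higher than shoot in the limma fit (adjusted p under 0.05). Over all probes tested this was true of 37.0%. No minimum fold was set: the lowest fitted ratio of a carried member was log2 0.55 in root, 0.58 in panicle and 0.42 in callus. The 42 remaining members had the signal in IR64 shoot without such a call in any of the 3 Nipponbare tissues. Root was higher than shoot for 48 members (23.2% of all probes were called higher), panicle for 55 (22.6% of all probes) and callus for 51 (24.9% of all probes). With the flag required, root carried 48 (23.0% of all probes), panicle 54 (22.4%) and callus 51 (24.8%). The members were chosen for a low shoot side, and the same shoot extracts are the denominator of these ratios, so the larger shares are not independent of the choice.

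**Figure D1:**
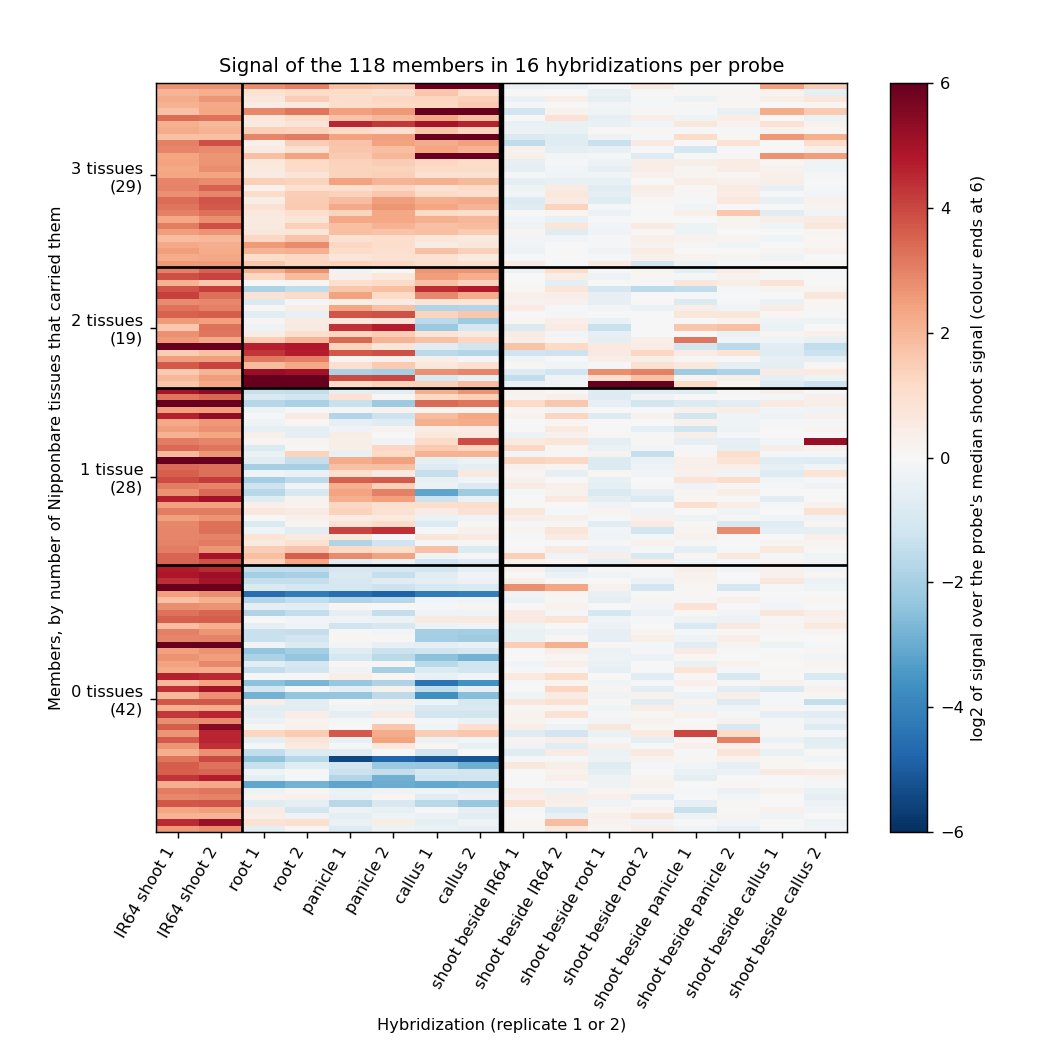
Each row is 1 of the 118 members and each column 1 of its 16 hybridizations, colored by the log2 of the signal over the median of the probe's 8 Nipponbare shoot signals. Rows are grouped by how many Nipponbare tissues carried the member (29 by all 3, 19 by a pair, 28 by 1 and 42 by none); the IR64 columns are red throughout, and the tissue columns turn from red to pale or blue from top to bottom.

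Fewer members lay below shoot. Root was lower than shoot for 21 members (23.2% of all probes), panicle for 22 (24.6%) and callus for 22 (24.6%), and 8 members were lower in all 3 tissues (14.5% of all probes). No flag was required for a lower call, so some rest on signals near background. Panicle in R02-E3TU-00382R and callus in R06-E3TU-00600R were called lower although neither they nor the shoot beside them were well above background. The median fitted log2 ratio of the members was 0.41 in root, 0.62 in panicle and 0.39 in callus, beside -0.05, -0.05 and -0.06 over all probes tested. As with the higher calls, the shoot side was chosen as low, so the smaller shares and these medians are not independent of the choice. Of the 3'-end units 40 of 55 were carried by at least 1 tissue, against 50.3% of all 3'-end units, and of the ENDS models 36 of 63, against 27.2% of all ENDS models. The share was thus the higher for 3'-end units among all probes too.

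**Figure D2:**
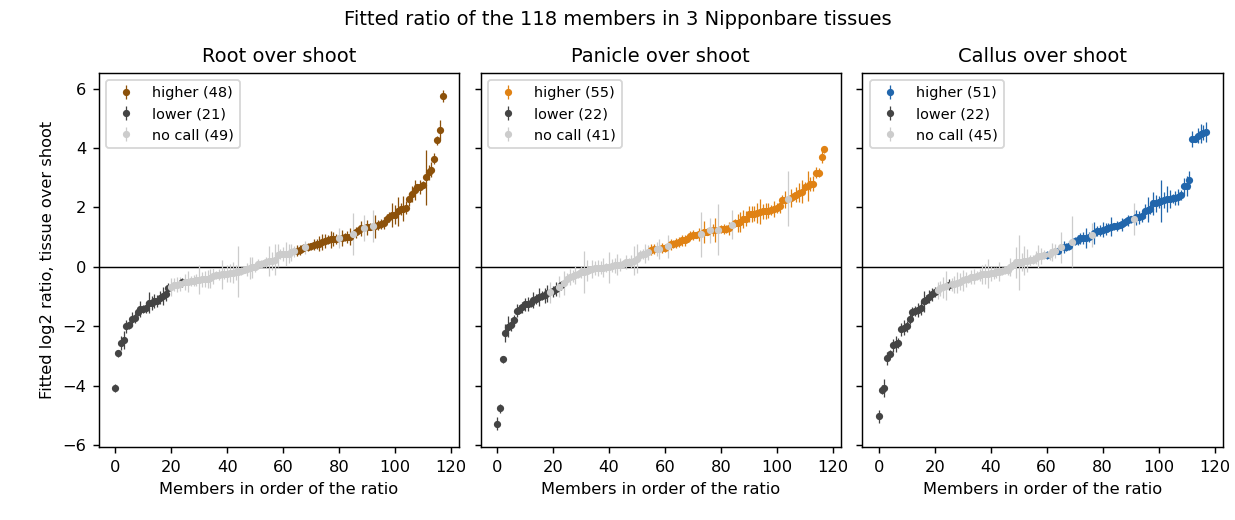
Fitted log2 ratio of tissue over Nipponbare shoot with its standard error for each of the 118 members (n = 2 arrays), sorted within root, panicle and callus. Colored points passed the limma test as higher (48, 55 and 51 members) and dark points as lower (21, 22 and 22), and pale points had no call.

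The same members were not always carried by the same tissue. All 3 tissues carried 29 members (11.6% of all probes), 8 were carried by root and panicle (3.41%), 6 by root and callus (3.54%) and 5 by panicle and callus (3.1%). A single tissue carried 28 (15.4% of all probes), namely panicle 12 (4.31%), callus 11 (6.57%) and root 5 (4.47%). The difference between tissues was itself tested in the same fit, where the shoot side cancels in part. Root was higher than panicle for 13 members and lower for 15 (6.07% and 6.51% of all probes), and higher than callus for 17 and lower for 17 (8.93% and 9.29%). Panicle was higher than callus for 22 and lower for 16 (9.36% and 9.99%). In all, 51 members differed between at least 1 pair of tissues (28.6% of all probes). Of the 28 members carried by a single tissue, 7 of the 12 for panicle, 4 of the 11 for callus and 2 of the 5 for root were also higher there than in both other tissues. The same shares were not taken over all probes carried by a single tissue, so these counts only describe the members.

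Carried members mostly stayed under the IR64 level. Among the 48 members carried by root, the root level was a median of 34.9% of the IR64 level of the same probe, and the medians were 43.9% for panicle and 42.2% for callus. The IR64 side was chosen as high by the rule, so the following counts are a description only. All 6 tissue channels lay below both IR64 channels for 95 of the 118 members (25.5% of all 3'-end and ENDS probes). For 17 members the highest tissue reached or exceeded IR64 (57.1% of those probes), 1 of them (9637.m00780_END) through a callus spot of replicate 2 that was marked as an outlier and left out of the fit. For 25 members the highest tissue was under 10% of IR64 (0.798% of those probes). In 35 of the 118 it was at least 50% of IR64, a count not taken over other probes.

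**Figure D3:**
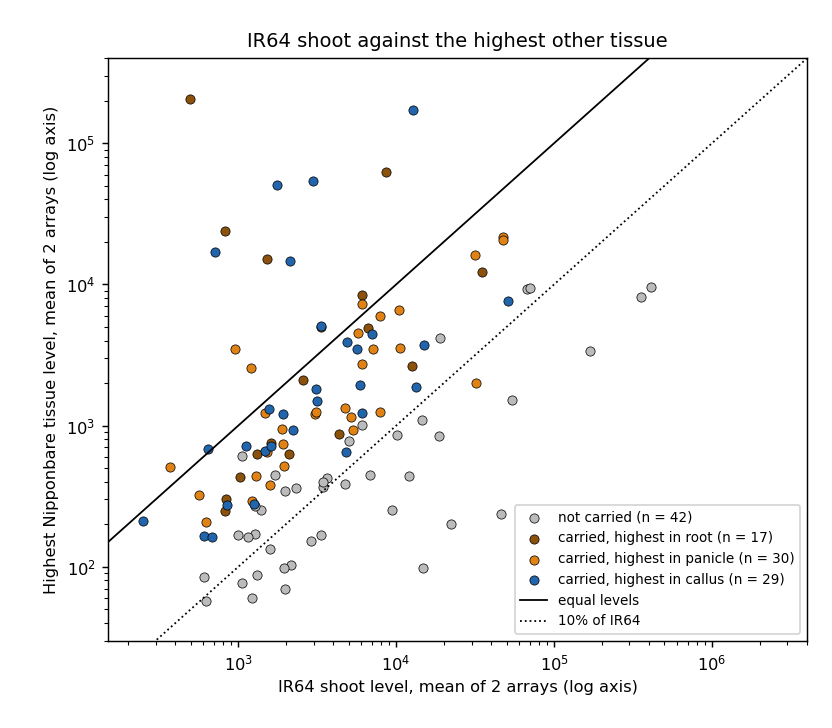
Mean level of IR64 shoot against the mean level of the highest Nipponbare tissue, 1 point per member, both axes logarithmic. The 76 carried members are colored by their highest tissue (17 root, 30 panicle, 29 callus) and lie mostly between the line of 10% and the line of equality, whereas many of the 42 others lie below 10% of IR64.

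The most extreme ratios of IR64 over shoot were found with and without a Nipponbare tissue. R05-E3TU-00287F had the largest mean ratio of the 3'-end units, with IR64 at 313076 and 401309, the second of them saturated, and shoot at 10932 and 8648 on the same arrays (28.4- and 45.7-fold). Root read 2711 and 2864, panicle 6092 and 4198 and callus 6832 and 9456. No tissue came near IR64, and root and panicle were lower than shoot (log2 -1.75 ± 0.23 SE, adjusted p = 0.00108; log2 -1.24 ± 0.23 SE, adjusted p = 0.00486). The ENDS model with the largest mean ratio, 9633.m00995_END, behaved alike: IR64 read 453303 and 370614, again with replicate 2 saturated, and shoot 19864 and 10443. Its root, panicle and callus signals ranged from 5946 to 11510.0, all below the 8 shoot signals except for overlap of the callus channel of replicate 2 with the lowest shoot signal, 10443. Root and panicle were called lower than shoot there (log2 -1.42 ± 0.28 SE and log2 -1.10 ± 0.28 SE, adjusted p = 0.00715 and 0.019). These calls rested on both replicates: for 9633.m00995_END the adjusted p was 0.0539 to 0.165 with either replicate of root or panicle left out, and for R05-E3TU-00287F the panicle call gave 0.0555 without panicle replicate 2.

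R06-E3TU-00420R was detected in IR64 at 14738 and 15044 and was dim in root, panicle and callus, where 3 of the 6 channels, both of callus and panicle replicate 1, were well above background. Root read 109.5 and 70.3, panicle 109.5 and 87.8 and callus 83.8 and 95.2, and no tissue differed from shoot by the test. Shoot read 344 and 544 beside IR64, but the lowest, median and highest of the other arrays were 77.0, 116 and 142. The groups do not overlap: the shoot beside IR64 was above every other shoot hybridization, and IR64 was far above both.

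Other members with large ratios were carried by 1 tissue. R12-E3TU-00292R read 42909.8 and 59542 in IR64 and 6272 and 8952 in callus, while root (527 and 506) and panicle (923 and 903) stayed within or below the 8 shoot signals. Callus was 4.90-fold above shoot (log2 2.29 ± 0.30 SE, adjusted p = 0.000877). 9640.m00910_END had the same pattern, with IR64 at 15194 and 11623, callus at 1983 and 1753 and root and panicle not well above background on any array. Its callus signal was higher than shoot (log2 2.91 ± 0.30 SE, adjusted p = 0.00049). For 9640.m00910_END no fold is given for root and panicle, since neither they nor the shoot beside them were well above background. The limma fit still called both lower than shoot (adjusted p = 0.0394 and 0.0344). Both calls were lost with normexp correction (adjusted p = 0.679 and 0.75). R09-E3TU-00304R was carried by panicle, with IR64 at 30296 and 33553, panicle at 1863 and 2153, root at 257 and 154 and callus at 274 and 307. Panicle was 3.46-fold above shoot (log2 1.79 ± 0.27 SE, adjusted p = 0.00254), yet only 6.29% of the IR64 level.

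9633.m01963_END was at a low level in shoot and was carried by all 3 tissues. IR64 read 1048 and 1902, root 162 and 367, panicle 429 and 683 and callus 601 and 712, and shoot read 44.8 and 79.0 beside IR64, not well above background on either array. The IR64 ratio is therefore a bound, at least 17.0-fold. Callus was 3.68-fold above shoot (adjusted p = 0.000937), panicle 3.08-fold (adjusted p = 0.00215) and root at least 1.76-fold (adjusted p = 0.00481), the root value being a bound because the shoot beside root was not well above background. The root call was lost without root replicate 1 (adjusted p = 0.069) and with normexp correction (adjusted p = 0.0929). In 9636.m03211_END the replicates of IR64 were far apart, 438 and 1675, against shoot at 40.8 and 31.8. Its panicle spot of replicate 1 was marked as an outlier and was left out of the fit, and no tissue was called.

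The 2 largest ratios of a tissue over shoot were found in root. R12-E3TU-00737R read 183674 and 228198 in root, 385 and 601 in IR64, 265 and 313 in panicle and 328 and 434 in callus. Root thus lay far above IR64, and it was 24.3-fold above the shoot on its own arrays (log2 4.60 ± 0.34 SE, adjusted p = 0.000142). The shoot beside root read 8370.5 and 9047, whereas the other 6 shoot hybridizations ranged from 51.0 to 269. Callus was at least 5.23-fold above shoot (adjusted p = 0.000994).

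R01-E3TU-01031F was higher in root and panicle than in IR64. Root read 19074 and 28478, panicle 2594 and 2721, IR64 683 and 966 and callus 87.3 and 126, so that callus lay within the range of the shoot signals. The ratio over shoot was 53.5-fold in root (log2 5.74 ± 0.21 SE, adjusted p = 8.83e-06) and was also raised in panicle (log2 3.70 ± 0.21 SE, adjusted p = 5.61e-05). In R11-E3TU-00879F the highest signal was that of IR64, with IR64 at 37585 and 32018, root at 11659.9 and 12776, panicle at 1139 and 747 and callus at 286 and 211. Root was 19.1-fold above shoot (log2 4.25 ± 0.15 SE, adjusted p = 1.26e-05) and panicle 5.21-fold (adjusted p = 0.000113).

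For 9 members the mean level of panicle reached or exceeded that of IR64. The rule chose IR64 as high and this count was not taken over other probes, so it only describes the members. In 9635.m00489_END panicle read 7069.7 and 7374 and IR64 5899.8 and 6294, against 1307 and 1573 in callus and 318 and 379 in root. Panicle exceeded shoot 8.99-fold (log2 3.17 ± 0.14 SE, adjusted p = 4.48e-05) and callus did so 2.86-fold (adjusted p = 0.000331), while root was lower than shoot by 1.43-fold (adjusted p = 0.027; 0.0847 to 0.222 with a root replicate left out, 0.0753 with only the root arrays fitted and 0.279 with normexp correction). In R02-E3TU-00746R panicle read 12389.8 and 9695 and callus 16339.9 and 12777, both above IR64 at 2278 and 1976, and root read 740.1 and 869. The ratios over shoot were 15.5-fold in panicle (adjusted p = 1.97e-05), 19.9-fold in callus (adjusted p = 7.42e-06) and 2.00-fold in root (adjusted p = 0.00114; 0.0543 with normexp correction).

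Callus exceeded IR64 in all 3 members that were most raised in it. In R10-E3TU-00127R callus read 16558 and 17318, IR64 638 and 778, root 442 and 657 and panicle 364 and 488. All 3 tissues were called higher than shoot, callus by 23.2-fold (log2 4.53 ± 0.33 SE, adjusted p = 0.000117), root by at least 5.99-fold (adjusted p = 0.00126) and panicle by at least 3.48-fold (adjusted p = 0.00534; 0.0552 without panicle replicate 2). In 9640.m03708_END callus read 168845 and 177402 against 12870.2 and 12873 in IR64, 13742 and 16134 in root and 6799 and 6336 in panicle. Callus was 22.9-fold above shoot (log2 4.52 ± 0.25 SE, adjusted p = 4.63e-05), and root and panicle were 6.44-fold and 3.47-fold above it (adjusted p = 0.00037 and 0.00198). In R05-E3TU-00968R callus (4467 and 5631) lay above IR64 (2909.8 and 3729.6) and panicle (640.4 and 728) below it, and root was not well above background (56.3 and 72.0). Callus was 22.3-fold above shoot (adjusted p = 7.28e-05) and panicle at least 4.03-fold (adjusted p = 0.00108).

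**Figure D4:**
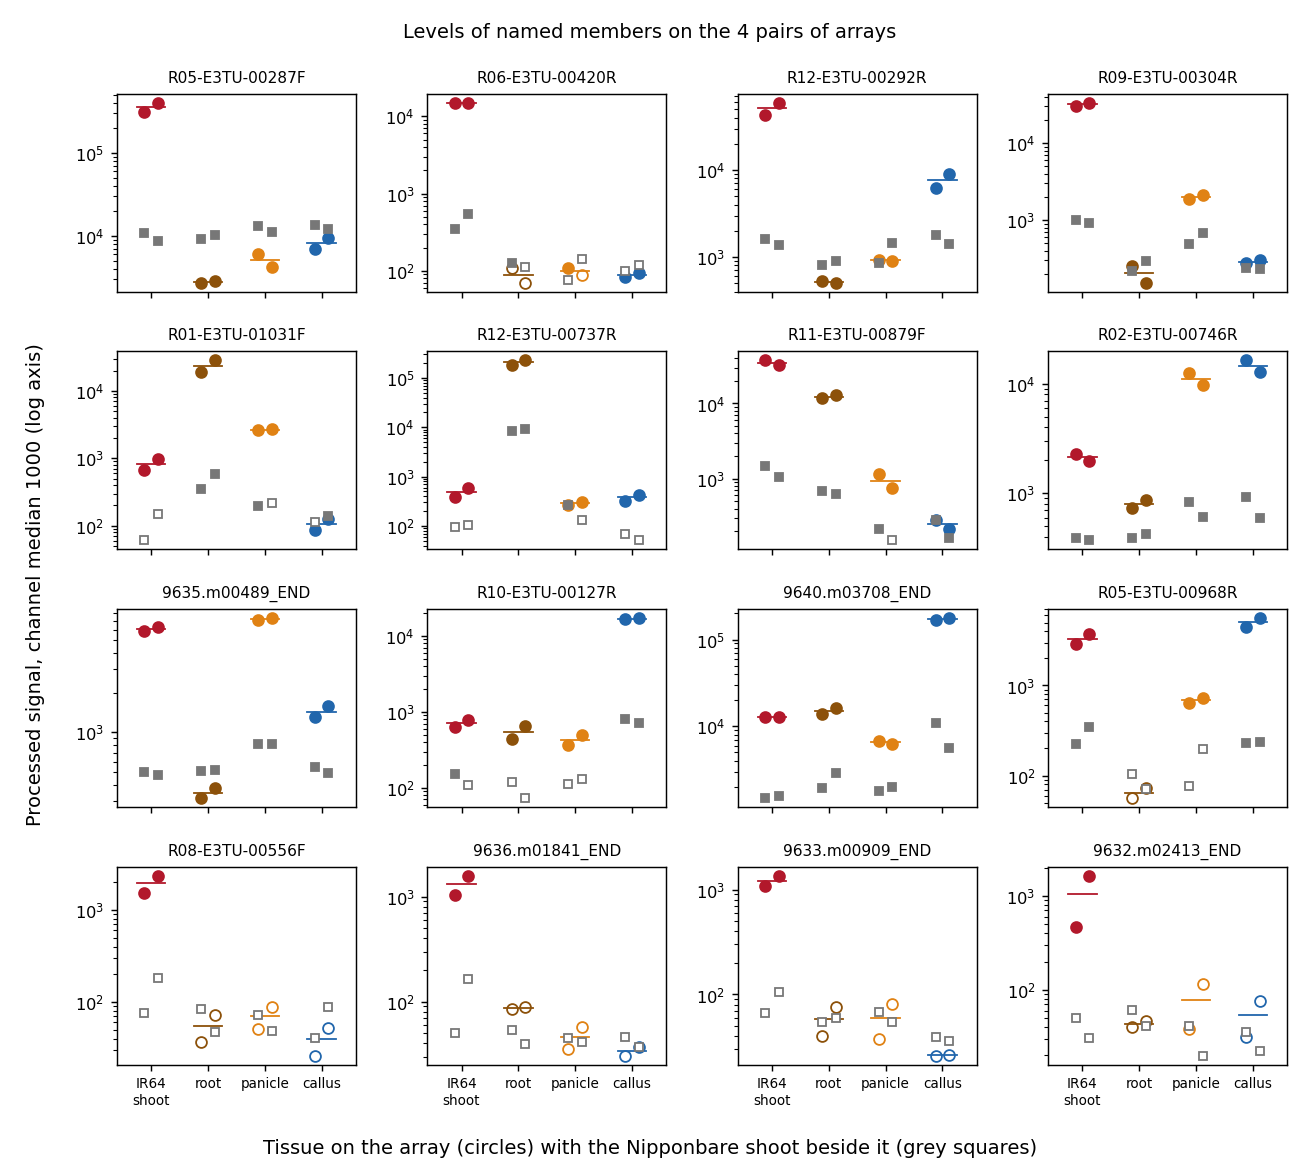
Levels of 16 members on the 4 pairs of arrays, on a logarithmic axis: circles are the tissue named below (lines mark the mean of 2 replicates) and grey squares the Nipponbare shoot on the same array, with open symbols where the channel was not well above background. The first row shows large IR64 ratios, the 2 middle rows members carried by root, panicle or callus, and the last row members with open symbols in every Nipponbare channel.

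For 5 members no Nipponbare channel of the root, panicle and callus arrays was well above background; of the 3'-end and ENDS probes well above background in IR64 on both arrays, 0.148% were without such a signal. The members were chosen for a low shoot side, and the shoot channels of these arrays repeat the same extracts. Nothing is therefore read from the larger share of the members. R08-E3TU-00556F read 1552 and 2377 in IR64, and the highest of its 6 tissue channels was 88.8. 9636.m01841_END read 1027 and 1588 in IR64 and 30.6 to 88.8 in the tissues, and 9633.m00909_END read 1074 and 1361 and 26.1 to 81.6. Neither IR64 array had a shoot signal well above background for these members, so the ratio of IR64 over shoot is a bound: at least 15.4-fold for R08-E3TU-00556F, at least 10.5-fold for 9636.m01841_END and at least 12.7-fold for 9633.m00909_END. In 9632.m02413_END the IR64 replicates were far apart (465 and 1649), and the ratio was at least 10.6-fold. The fifth, R08-E3TU-00356F, had IR64 at 286 and 958 and a bound of at least 6.46-fold. A signal under the flag's limit in Nipponbare was not detectable here, which is not the same as absent.

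The 42 members not carried by a tissue were mostly measured, not blank. In 34 of the 42 at least 1 tissue was well above background on both arrays, and in 5 no tissue channel was. In 23 at least 1 tissue was called lower than shoot, a call that required no flag. These shares were not taken over other probes, so they only describe the 42. In each channel 80.5% to 95.5% of all probes were well above background. R04-E3TU-01257R was the lowest in root: root read 148 and 196, panicle 148 and 123 and callus 193 and 206, whereas the 8 shoot signals lay between 2581 and 3927 and IR64 read 19521 and 24864. The tissues lay 16.8-fold, 27.1-fold and 17.4-fold below shoot (adjusted p = 7.25e-06, 1.48e-05 and 6.83e-06), so shoots of both cultivars were higher than the other tissues. 9633.m01107_END was the lowest in panicle and callus. IR64 read 126335 and 210469, the 8 shoot signals lay between 11234 and 15919, root read 2534 and 4206, panicle 315 and 486 and callus 401 and 382. Panicle was 38.5-fold and callus 32.7-fold below shoot (log2 -5.27 ± 0.22 SE and log2 -5.03 ± 0.22 SE, adjusted p = 2.38e-05 and 1.34e-05).

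The shoot signal of some members differed between arrays. For each member the brightest of the 4 tissues was found, which was IR64 for 102, root for 6, callus for 6 and panicle for 4. The rule chose IR64 as high and no such count was made over other probes, so this only describes the members. The shoot on the brightest tissue's 2 arrays was then set beside the 6 other shoot hybridizations. It lay above all 6 for 23 of the 118 members, beside 14.1% of all 3'-end and ENDS probes. Where the brightest tissue was at least 32-fold above the 6 other shoot hybridizations, a mark set after the values were seen, this held for 12 of 18 members and for 79.4% of 374 3'-end and ENDS probes. In those 18 members the shoot was a median of 3.81-fold above the other shoot hybridizations and 4.50% of the tissue beside it. The mark and the place of the shoot were both taken against the same 6 signals, so low values of these raise both. Nothing is therefore read from the larger share or fold beyond the mark. In 8 of the 18, 3 or more of the 6 other shoot hybridizations were not well above background, so their folds are of measured signals near background; of the 10 others, 7 had the shoot above all 6. The shoot on the IR64 arrays alone lay above all 6 others for 13 members and below all 6 for 8, beside 6.92% and 6.81% of the 3'-end and ENDS probes.

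Over the 118 members the shoot on the IR64 arrays was a median of 1.08-fold the median of the 6 others (quartiles 0.887 and 1.32). Over all 3'-end and ENDS probes it was a median of 1.01-fold. In some members, however, the ratio differed widely with the shoot hybridization it was taken against. For R09-E3TU-00304R IR64 was 32.9-fold above the shoot on the same arrays and 119-fold above the median of the 6 others, for R11-E3TU-00879F 27.9-fold and 139.6-fold, and for 9640.m03708_END callus was 22.1-fold and 91.7-fold above. For R12-E3TU-00737R, R06-E3TU-00420R and R10-E3TU-00127R no such second fold is given, because 5 of the 6 other shoot hybridizations were not well above background. Both replicates and both dye orientations showed this: the shoot beside IR64 in R11-E3TU-00879F read 1482 and 1042, whereas the other 6 shoot hybridizations ranged from 151 to 695. 9639.m01076_END, a member given here after its values were seen, had IR64 at 41068 and 51690.3 and shoot at 3089.6 and 2296 beside it, and its other 6 shoot signals ranged from 207 to 526. The same 2 shoot extracts were used throughout according to the labels, and the cause of the difference was not tested.

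**Figure D5:**
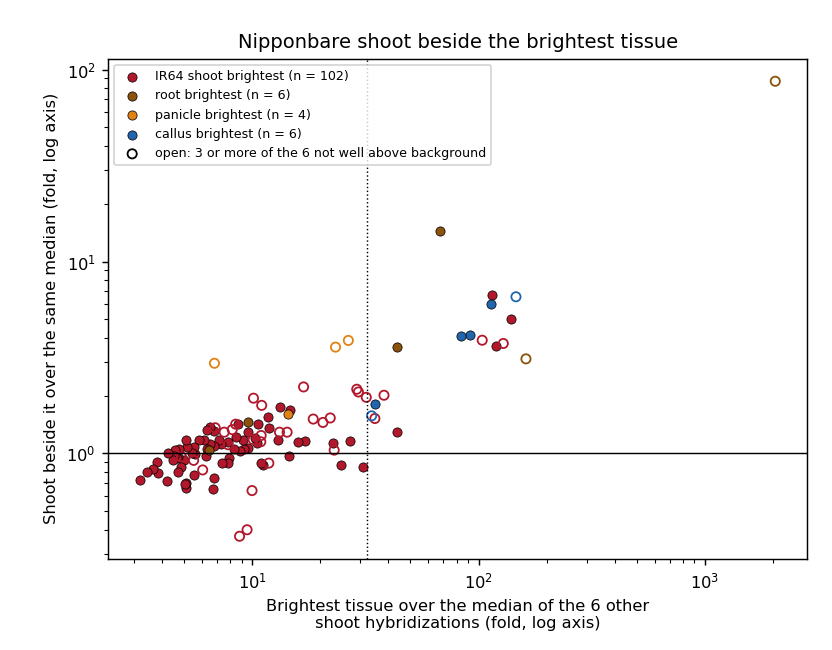
For each member, the level of its brightest tissue (horizontal axis) and of the shoot on that tissue's arrays (vertical axis), both as folds over the median of the 6 other shoot hybridizations, on logarithmic axes. Right of the dotted line at 32-fold the shoot was a median of 3.81-fold above the other shoot hybridizations, and open symbols mark members with 3 or more of those 6 not well above background (8 of the 18 right of the line). Both axes share this median, so a low median moves a point up and to the right.

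Some members resembled each other in all 8 ratios, and in 191 of the 6903 possible pairs no ratio differed by as much as 2-fold. Likeness in the IR64 ratios is partly fixed by the rule, which held them at log2 2 or higher. No such count was made over other probes, so this only describes the members. The 2 closest pairs each joined a 3'-end unit and an ENDS model. R06-E3TU-00599R and 9634.m02109_END differed by at most 1.16-fold in any ratio. For R06-E3TU-00599R the fitted log2 ratios were 0.91 in root, 1.05 in panicle and 1.32 in callus, and for 9634.m02109_END they were 0.95, 1.07 and 1.20, so both were carried by all 3 tissues. R06-E3TU-00468R and 9634.m01437_END, which lie on different array sets, differed by at most 1.17-fold. Their ratios were -1.15 and -1.14 in root, 0.06 and -0.03 in panicle and -2.04 and -2.10 in callus. The files do not state whether the probes of a pair read the same transcript.

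Members with neighboring identifiers were found in 3 instances. 9636.m04263_END and 9636.m04264_END were both carried by panicle alone, at 3485 and 3603 and at 3357 and 2107, with IR64 at 11002 and 10175 and 6401 and 5811. Panicle was 2.78-fold and 3.66-fold above shoot (adjusted p = 0.000503 and 0.00147) and was higher than root and callus in both. R06-E3TU-00599R and R06-E3TU-00600R differed, since the former was carried by all 3 tissues and the latter by root (171 and 323, at least 2.50-fold above shoot, adjusted p = 0.000624), with panicle and callus not well above background. 9634.m02055_END was carried by no tissue and 9634.m02056_END by root and panicle. These members were singled out after their values were seen.

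The number of members and of calls changed with the processing. With normexp correction and loess in place of the processed signals, 36 of the 118 still passed the rule and no other probe did. The count of members higher in root than in shoot was 48 with both replicates, 31 without root replicate 1 and 29 without root replicate 2. The members that differed between tissues changed alike: 28 between root and panicle became 17 without root replicate 1 and 18 without panicle replicate 2, 34 between root and callus became 19 without root replicate 2 and 21 without either callus replicate, and 38 between panicle and callus became 24 without either callus replicate.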

How the data were processed

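Signals were read from 16 2-color arrays of 60-mer probes, on 2 array sets, for IR64 shoot and Nipponbare root, panicle and callus, each against Nipponbare shoot, and samples were grouped by their labels. The intensity columns used are processed signals as deposited, from Agilent Feature Extraction (8.1.1.1 per the file headers; another release is named in the labels): the authors' software subtracted the background with spatial detrending, normalized the dyes by linear scaling and LOWESS, and put in a surrogate value where a signal was not above background. This last step limits the ratio of a dim probe. The deposited flags call a spot well above background at a test threshold of 0.01 and 2.6 SD, and mark saturated and outlier spots. The log10 ratios of the deposited value tables equal those of the scanner files and were an alternative source. Each array held 44290 spots, and the number of arrays limits the precision.

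Log2 ratios of tissue over shoot were taken within each array, with the sign turned for the dye, after control spots and outlier spots were left out. limma 3.58.1 (R 4.3.3) was fitted per array set over all 8 arrays with 1 coefficient per comparison and no dye term, and p-values were adjusted by Benjamini-Hochberg over the probes of both sets, with a threshold of 0.05 (two-sided). The test was run on simulated data with known changes first. Noise there was independent between arrays, so that run could not show any effect of the correlated replicate differences given below. A side not well above background on both arrays gave a bound, written "at least N-fold": the mean of the brighter side against the higher of the dim probe's own signal and the lowest signal well above background on each array, after loess and Aquantile normalization. Levels were scaled to a channel median of 1000 and were compared only within a probe. The members and lists were chosen with earlier results of these data known. Named members are the 4 of each kind with the largest IR64 ratio, for each of the 3 tissues the 3 carried members with the largest ratio and the lowest called lower, the 4 brightest in IR64 without a Nipponbare channel well above background outside the IR64 arrays, and the 2 probes nearest the threshold on each side.

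Replicate differences correlated between all 12 pairs of comparisons (0.213 to 0.494), so that replicate numbers pair the arrays; the number stands for dye and, outside callus, for the shoot extract. Alternatives were normexp correction (offset 50) with loess, centring, the deposited ratios, the replicate block, fits of 1 comparison, dim probes left out, other flags, scalings and thresholds, and each replicate left out. Probe sequences and gene names were not used here.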

Additional observations from a re-analysis of the deposited data

Results flagged for a closer look

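In 2 of the 24 named members a shoot hybridization stood apart from the other 7 of the same probe. In 9636.m03211_END the shoot read 1120.3 on the panicle array of replicate 1, a gap of 0.556 of the whole range to the next value, and this spot was marked as an outlier by the scanner software. In 9636.m01841_END the shoot read 163.3 on the IR64 array of replicate 2, a gap of 0.747 of the range, and was not well above background. Chance gives such a gap in about 1 of 20 groups.

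The response relative to shoot differed between tissues for 28 members between root and panicle, for 34 between root and callus and for 38 between panicle and callus (limma, adjusted p under 0.05). These contrasts were added after seeing the data.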

How the results depend on the processing

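With normexp correction and loess, or with a log2 threshold of 3, 36 members were chosen in each case, and with a log2 threshold of 1 584 were. With a replicate left out, the members called higher numbered 29 to 31 in root, and those that differed numbered 17 to 20 between root and panicle, 19 to 23 between root and callus and 24 to 33 between panicle and callus. In that case 1 array of a tissue was assumed to vary like the other tissues. The other counts stayed within 1.5 times: 45 to 46 in panicle, 35 to 43 in callus and 62 carried with a replicate left out. With normexp, 35, 48 and 50 members were higher in root, panicle and callus and 71 were carried. With the replicate block 50, 59 and 53 were higher and 77 were carried, and the tissues differed for 34, 40 and 41; the block changed no call of a named member. For the named members the 43 called tissue ratios were recomputed, and ratios without a call were not. Of the 339 recomputed values, 43 came from the deposited ratios, which equal those of the scanner files. Another 43 came from the replicate block, which left the fitted ratios as they were. Agreement in both was thus largely fixed beforehand. In all, 319 of the 339 kept direction and call, 20 kept the direction and lost the call, and none reversed. The cause of these changes was not tested. A surrogate value stands in for signals not above background, so ratios of dim members are limited by the background, and both saturated IR64 spots limit the largest ones.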
